A study of Mus musculus with 21 samples.

Results

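The suppressors of cytokine signalling (SOCS) are a family of intracellular inhibitors that cells make in response to cytokines and that act back on the same receptors. The family was taken as the 8 genes Socs1 to Socs7 and Cish, found by their symbols among the 37734 genes of the deposited RNAseq tables, and all 8 were found. The levels of these 8 mRNAs were followed over 6 groups of conventional dendritic cells (cDCs), the antigen-presenting cells that in the thymus display self antigens to developing T cells. cDC1 are the subset specialised in cross-presentation and cDC2 the subset that presents mainly to CD4 T cells.

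All cells came from C57BL/6 mice aged 6 to 8 weeks with no genetic change or treatment named in the labels. Spleens or thymuses were pooled over several mice, and cDCs were enriched on CD11c beads and sorted. Immature cells, negative for CCR7 and ESAM, gave 4 groups, namely splenic cDC1 (SP1Minus, 5 libraries), thymic cDC1 (TH1Minus, 4 libraries), splenic cDC2 (SP2Minus, 3 libraries) and thymic cDC2 (TH2Minus, 3 libraries). Mature cells, positive for both, were sorted from the thymus and gave thymic cDC1 (TH1Plus, 3 libraries) and thymic cDC2 (TH2Plus, 3 libraries). Mature splenic cDCs were not analysed here, so that maturation was followed in the thymus alone. As the labels write the gates, cDC1 were CD24+ and CD11b- and cDC2 were CD24- and CD11b+, and F4/80, Ly6g, Ly6c and DX5 are listed as excluded for cDC1 only. Sorting used the proteins CCR7 and ESAM, so Ccr7 and Esam are checks of the labels: the mean Ccr7 level was 714 normalized read counts in TH1Minus and 110227 in TH1Plus, and 3419 in TH2Minus and 99928 in TH2Plus. Esam rose from 23.5 to 1205 in thymic cDC1 and from 7.93 to 975 in thymic cDC2. Xcr1, a chemokine receptor of cDC1, had a mean of 19098 in TH1Minus and 235 in TH2Minus but only 440.3 in TH1Plus, whereas Sirpa, a surface receptor of cDC2, had a mean of 15302 in TH2Minus and 234 in TH1Minus.

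SOCS proteins carry an SH2 domain, which binds phosphorylated tyrosines on cytokine receptors or Janus kinases (JAKs), and a C-terminal SOCS box, which recruits elongins and a cullin to form a ubiquitin ligase. SOCS1 and SOCS3 can also block the kinase directly. Transcription of Cish, Socs1, Socs2 and Socs3 is classically driven by the STAT factors that the same receptors activate, which closes a negative feedback loop, whereas SOCS4 to SOCS7 are better known from growth factor and insulin receptor signalling.

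The unit of the values is the normalized read count, that is, the number of reads of a gene divided by the size factor of its library. Between 14266867 and 40119669 reads per library (median 24768633) could be recovered from the values. Replicates 4 and 5 of SP1Minus carried the same library number, index and lane, and their counts differed by a chi-square of 2.444 per degree of freedom against 24.99 or more for every other pair of that group. They were averaged and counted as 1 sample, labelled replicate 4 below, which left 20 samples. No label states that the replicates of a group came from separate pools of mice, so that p-values measure the spread between these samples, which may be technical. TH1Minus replicates 3 and 4 also shared number, index and lane but differed by 92.77 and were kept apart. The lane is the sequencing lane named in the library descriptions, 5 or 8, and all mature libraries were in lane 8. Lane 5 held 2 libraries each of SP1Minus and SP2Minus and 1 each of TH1Minus and TH2Minus. Lane 8 held 1 SP2Minus library. Differences within a lane thus rest on few libraries, in places on 1 per group, and do not measure an effect of the lane. Libraries that stood apart from their group were TH2Plus replicate 3 (chi-square per degree of freedom of 143.6 and 124.9 against the other replicates, which differed from each other by 26.91), SP1Minus replicate 3 (99.97 to 176.4) and SP2Minus replicate 2 (105.8 and 132.2, against 35.32 between the other replicates). To a lesser degree this held for TH1Minus replicate 3 (56.13 to 92.77, against 22.83 to 37.31 among the others) and TH1Plus replicate 3 (48.06 and 57.09, against 20.44). Differences were tested with limma on log2(value + 1) over 14970 genes, and a gene was called when its Benjamini-Hochberg adjusted p was below 0.1 and its change above 2-fold. In bulk RNA from sorted cells, fewer cells of a type and less RNA per cell cannot be told apart.

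The plot of all members by sample shows that the family split into genes with a wide range and genes with a narrow one. The highest group mean was 1946-fold above the lowest for Socs2, 413-fold for Cish, 33.0-fold for Socs3 and 18.8-fold for Socs1, against 2.90-fold for Socs5, 2.53-fold for Socs6, 1.57-fold for Socs7 and 1.40-fold for Socs4. Over the 15 pairs that the 6 groups form, Cish was called in 14, Socs2 in 13, Socs1 and Socs3 in 11 each, Socs5 and Socs6 in 6 each, and Socs4 and Socs7 in 0. The number of called pairs was not counted for other genes. Of all genes, 21.3% were called higher and 24.5% lower in TH1Plus against TH1Minus, and 4.26% and 4.52% in TH1Minus against SP1Minus. At an adjusted p below 0.1 with no fold threshold, Socs7 passed in 6 pairs and Socs4 in 0.

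**Figure D1:**
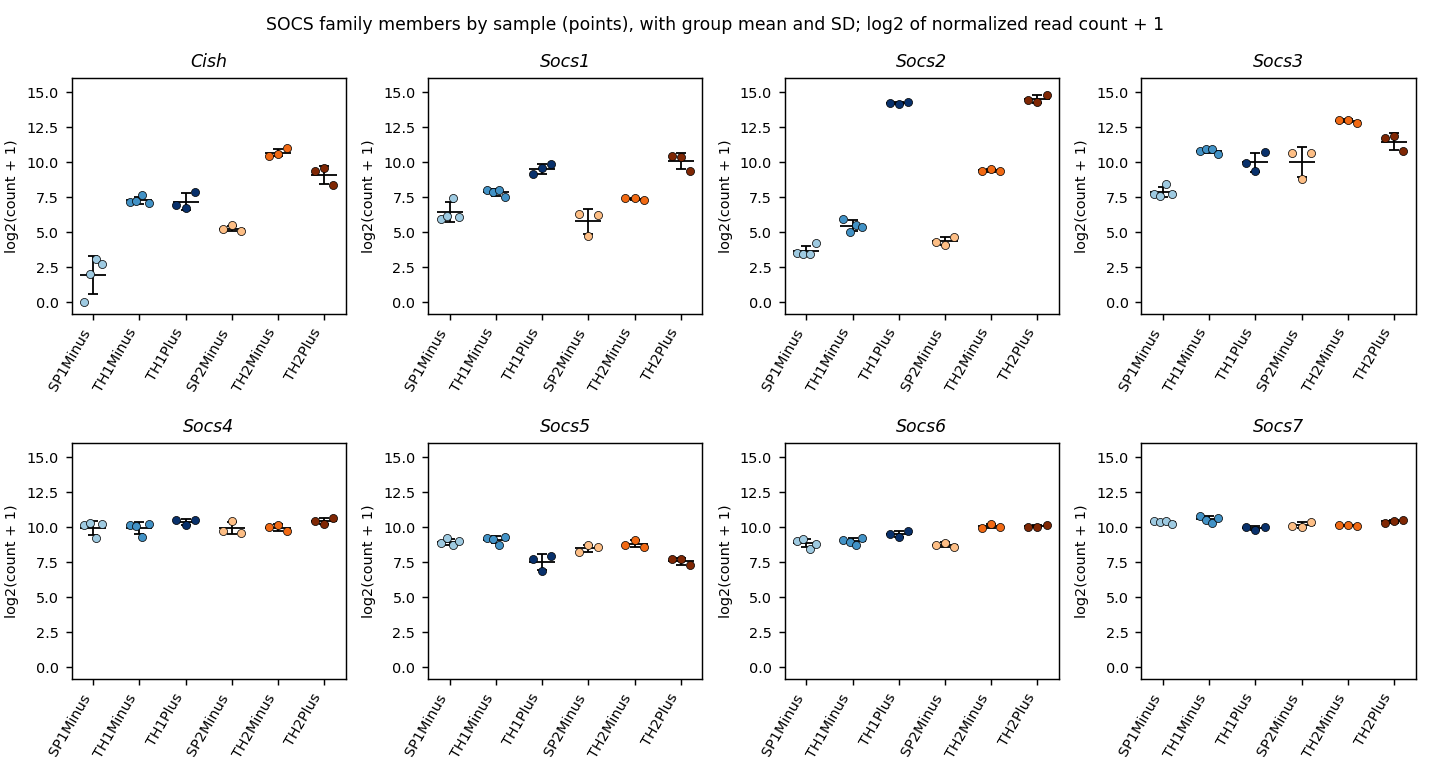
Level of each SOCS family member in each of the 20 samples, as log2 of the normalized read count plus 1 on the vertical axis, by group on the horizontal axis. Points are samples, the short line is the group mean and the bar the SD. Socs2 lies at 24.4 counts or less in the splenic samples and at 18200.2 or more in the mature ones, Cish and Socs3 peak in TH2Minus, and Socs4 and Socs7 stay between 603 and 1799 counts throughout.

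Because a long mRNA gives more reads than a short one, members were compared with each other only after division by their merged exon length, which ran from 2891 bases for Socs3 to 11349 bases for Socs6 in GENCODE M21. On this scale the leading member differed between groups. In SP1Minus it was Socs7, with 31.7% of the summed family level per kb, followed by Socs4 with 26.6%. Socs3 led in the other immature groups, with 50.9% in TH1Minus, 49.8% in SP2Minus and 76.2% in TH2Minus. Socs2 took 64.6% in TH1Plus and 54.9% in TH2Plus, after 0.379% in TH1Minus and 1.99% in TH2Minus. The summed level itself was 568 normalized read counts per kb in SP1Minus, 849 in SP2Minus, 1223 in TH1Minus, 3064 in TH1Plus, 3582 in TH2Minus and 4491 in TH2Plus. These sums and shares are descriptions and were not tested.

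**Figure D2:**
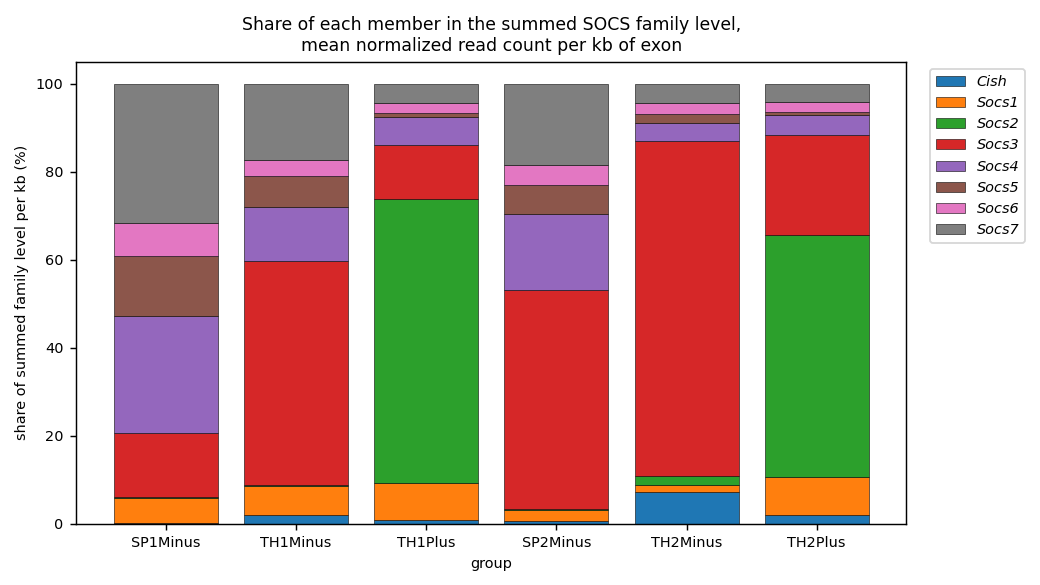
Share of each member in the summed SOCS family level, in percent of the group mean per kb of exon, for the 6 groups. Socs3 fills most of the TH2Minus bar (76.2%) and Socs2 most of the TH1Plus (64.6%) and TH2Plus (54.9%) bars.

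Socs2 encodes an inhibitor best known for restraining growth hormone receptor signalling through JAK2 and STAT5, and it was the member that changed most. It lies on chromosome 10 from 95385362 to 95417180, on the minus strand, with 13 merged exons (GRCm38). Its normalized read counts were 10.3, 9.86, 10.2 and 18.0 in SP1Minus, 19.2, 16.2 and 24.4 in SP2Minus, and 60.8, 30.8, 43.7 and 41.4 in TH1Minus. They were 662, 724 and 653 in TH2Minus, 18799, 18200.2 and 19622 in TH1Plus, and 21778, 20175 and 28509.5 in TH2Plus. The splenic groups overlapped, every further step up this order was free of overlap, and the lowest mature sample lay at 18200.2 against 724 for the highest immature sample. Per kb of exon, Socs2 held rank 15419 of 37693 genes in SP1Minus, rank 695 in TH1Plus and rank 490 in TH2Plus.

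On maturation, the mean Socs2 level rose 427-fold in thymic cDC1 (log2 fold change 8.75, SE 0.24, adjusted p = 1.3e-16) and 34.6-fold in thymic cDC2 (5.09, SE 0.25, adjusted p = 3.9e-12). The mature groups differed by 0.30 on the log2 scale (TH2Plus minus TH1Plus, 95% interval -0.23 to 0.83, adjusted p = 0.44), although their ranges did not overlap. The starting points differed, since TH2Minus lay 15.4-fold above TH1Minus (3.95, SE 0.24, adjusted p = 1.4e-10). The test of the difference between both maturation effects gave -3.65 (SE 0.35, adjusted p = 7.9e-07), so that the rise was smaller in cDC2. Thymic immature cells also lay above splenic ones, by 3.66-fold in cDC1 (1.79, SE 0.22, adjusted p = 6.5e-06) and by 34.0-fold in cDC2 (5.04, SE 0.25, adjusted p = 4.5e-11), and these effects differed by 3.25 (SE 0.34, adjusted p = 3.8e-06). In the spleen, the cDC2 mean was 1.65-fold above the cDC1 mean, a log2 difference of 0.71 (adjusted p = 0.034) that did not pass the fold threshold. Without TH2Plus replicate 3 the maturation effect in cDC2 was 4.95, and without SP2Minus replicate 2 the tissue effect in cDC2 was 4.91. Within lane 8, the only lane with mature libraries, the maturation effects were 8.91 and 5.08. The tissue effect was 2.48 within lane 5 and 1.43 within lane 8 in cDC1, and 5.15 and 4.76 in cDC2.

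Markers of other cells moved with maturation and with tissue too. Of 10 T lineage markers, 9 passed the filter on low values, and all 9 were called higher on maturation in both subsets and in thymic over splenic cDC1, and 5 in thymic over splenic cDC2. The shares of all genes called higher were 21.3% and 18.6% on maturation in cDC1 and cDC2, and 4.26% and 8.30% between tissues. The summed level of the 10 T lineage markers lay between 8.31 and 13.8 in SP1Minus, 44.4 and 104 in SP2Minus, 137 and 216 in TH1Minus, 127 and 252 in TH2Minus, 814 and 1832 in TH1Plus, and 782 and 1343 in TH2Plus. Rag1, which thymocytes use to rearrange their receptor genes, had means of 47.7 in TH1Minus, 251 in TH1Plus, 33.3 in TH2Minus and 187 in TH2Plus, while the remaining marker, Ptcra, reached at most 2.40 in any thymic library.

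Of 5 thymic epithelium markers, 2 were higher on maturation in cDC1 and 4 in cDC2, against 21.3% and 18.6% of all genes. In thymic over splenic cells 3 were higher in cDC1 and 5 in cDC2, against 4.26% and 8.30%. The summed level of these 5 markers lay between 3.09 and 21.2 in the splenic groups, 48.5 and 162 in the immature thymic groups, and 1659 and 4452 in the mature ones. Of 5 markers of plasmacytoid dendritic cells, 1 was higher in thymic cDC1 and 5 were higher in thymic cDC2, with sums of 3269 to 3960 in SP2Minus and 10538 to 12121 in TH2Minus. On maturation 2 of the plasmacytoid markers were lower in cDC1, and 3 were lower and 1 higher in cDC2, where 24.5% and 17.0% of all genes were lower. The part of the cells carrying these markers in the changes of Socs2 and the other members was not tested.

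Cish encodes CIS, which binds the receptors of cytokines such as IL-2, IL-3 and GM-CSF and limits STAT5 activation. It lies on chromosome 9 from 107296026 to 107302784, on the plus strand, with 3 merged exons. The RefSeq promoter table (GRCm38.p6) held windows of 300 bases, 250 before and 50 after the annotated start, for 4 members, namely Cish, Socs1, Socs3 and Socs4. Because the family is known for STAT-driven transcription, the windows were searched on both strands for TTCNNNGAA, the core of a STAT site, which reads the same on both strands. The motif was present in 8.30% of all 32851 promoter windows, and 0.457% held it more than once. The Cish window held it at 2 places, both shown in capitals in the stretch at chr9:107296629-107296683 (plus strand), in which the capitals begin at the annotated start.

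Cish: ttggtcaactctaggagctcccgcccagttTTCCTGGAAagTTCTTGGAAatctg

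The Cish level followed tissue and subset more than maturation. Its normalized read counts were 0, 2.96, 7.39 and 5.77 in SP1Minus, 36.6, 43.7 and 32.6 in SP2Minus, and 139, 149.9, 197 and 137 in TH1Minus. They were 122, 104.0 and 233 in TH1Plus, 656, 764 and 324 in TH2Plus, and 1419, 1547 and 2023 in TH2Minus. The order from SP1Minus to TH2Minus was free of overlap except between TH1Plus and TH1Minus. SP1Minus rested on 0 to 15 reads per sample, and the sample without a read allowed a level of up to 3.09, the value of 3 reads, which covers counting error only.

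Thymic cells lay above splenic ones in both subsets, with a log2 fold change of 5.32 in cDC1 (SE 0.48, adjusted p = 1.2e-07) and of 5.42 in cDC2 (SE 0.56, adjusted p = 6.0e-07). The cDC1 value depended on the pseudocount, at 3.79 with a pseudocount of 8 and 6.33 with 0.1, because of the low level in SP1Minus. The cDC2 means, 1663 ± 319 (SD, n = 3) in TH2Minus and 37.6 ± 5.64 (SD, n = 3) in SP2Minus, were 44.2-fold apart. The tissue effects of cDC2 and cDC1 differed by 0.10 with a 95% interval of -1.45 to 1.64 (adjusted p = 0.99), so that a difference of over 2-fold between them was not excluded, and with a pseudocount of 8 the difference was 1.39 and called (adjusted p = 0.078). cDC2 lay above cDC1 by 3.31 in the spleen (SE 0.52, adjusted p = 5.9e-05), by 3.41 in the immature thymus (SE 0.52, adjusted p = 4.4e-05) and by 1.92 in the mature thymus (SE 0.56, adjusted p = 0.017). Within lanes 5 and 8, the tissue effect was 6.13 and 4.41 in cDC1 and 5.11 and 5.72 in cDC2, and the subset effect 4.37 and 2.16 in the spleen and 3.35 and 3.46 in the immature thymus. The subset effect in the mature thymus was not called with a pseudocount of 0.1 (1.93, adjusted p = 0.19).

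On maturation, Cish was not called in cDC1 (-0.10, 95% interval -1.19 to 0.99, adjusted p = 0.89) and fell 2.86-fold in cDC2 (-1.59, SE 0.56, adjusted p = 0.024). All TH2Plus samples lay below all TH2Minus samples. The call of this fall in the limma fit depended on TH2Plus replicate 3, which had the lowest of the 3 values. Without it the value was -1.21 (adjusted p = 0.12) and the call was lost, as it was with a pseudocount of 0.1 (-1.59, adjusted p = 0.22). The difference between the maturation effects, -1.49 (SE 0.77, adjusted p = 0.22), was not called in the limma fit, whereas edgeR on the recovered reads called it (-1.48, adjusted p = 0.061) and so did DESeq2 (-1.52, adjusted p = 0.011). Cish shares 261 exon bases with Gm17040 and 479 with Gm17041 on the opposite strand. The kit keeps the strand but the strand setting of the counting is not given in the sources used here. These genes had at most 5 and 2 reads in any library.

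Socs3 encodes the main inhibitor of signalling through gp130, the shared receptor chain of the IL-6 family, and of the G-CSF and leptin receptors. It lies on chromosome 11 from 117966079 to 117970047, on the minus strand, with 4 merged exons. Its promoter window held the motif TTCNNNGAA once, from 154 to 146 bases before the annotated start, as shown in capitals in the stretch at chr11:117969482-117969550 (minus strand).

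Socs3: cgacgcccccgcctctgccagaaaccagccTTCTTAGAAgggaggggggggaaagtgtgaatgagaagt

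Socs3 shared the tissue and subset pattern of Cish at higher levels, and in TH2Minus it held rank 354 of 37693 genes per kb. Its normalized read counts were 210.0, 195, 344 and 207 in SP1Minus, 1645, 440.5 and 1579 in SP2Minus, and 1793, 1933, 1932 and 1536 in TH1Minus. They were 957, 664 and 1663 in TH1Plus, 3399, 3752 and 1762 in TH2Plus, and 8254, 8239 and 7176 in TH2Minus. SP1Minus lay below all other groups and TH2Minus above them without overlap, while each neighbouring pair among TH1Plus, SP2Minus, TH1Minus and TH2Plus overlapped.

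Thymic cDC1 lay 7.52-fold above splenic cDC1 (2.94, SE 0.35, adjusted p = 4.0e-06) and thymic cDC2 6.46-fold above splenic cDC2 (2.91, SE 0.40, adjusted p = 2.2e-05), and the difference between these effects was -0.03 (95% interval -1.14 to 1.08). cDC2 exceeded cDC1 by 2.16 in the spleen (SE 0.38, adjusted p = 0.00016), by 2.14 in the immature thymus (SE 0.38, adjusted p = 2.0e-04) and by 1.47 in the mature thymus (SE 0.40, adjusted p = 0.011). SP2Minus replicate 2, at 440.5, was the lowest of its group. Without it the tissue effect in cDC2 was 2.29 and the subset effect in the spleen 2.79, both called. Within lanes 5 and 8, the tissue effect was 3.14 and 2.74 in cDC1 and 3.28 and 2.28 in cDC2, and the subset effect 2.07 and 2.56 in the spleen and 2.20 and 2.10 in the immature thymus. On maturation Socs3 fell 2.66-fold in cDC2 (-1.48, SE 0.40, adjusted p = 0.0046), or by 1.14 on the log2 scale without TH2Plus replicate 3 (adjusted p = 0.037). In cDC1 the log2 fold change of -0.81 (SE 0.38, adjusted p = 0.070) was under the fold threshold, but it was called without TH1Plus replicate 3 (-1.17, adjusted p = 0.018). The maturation effects of both subsets differed by -0.67 (95% interval -1.81 to 0.48, adjusted p = 0.48).

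Macrophage markers varied among the cDC2 libraries. The summed level of 7 such genes, all of them detected in every cDC2 group, lay between 5299 and 6956 in SP2Minus, 7096 and 10509 in TH2Minus and 2261 and 15495 in TH2Plus, against 86.7 to 542 in the cDC1 groups. TH2Plus replicate 3 gave the 2261, and C1qa, a complement component made by macrophages, had a level of 532 there against 4196 and 4445 in the other TH2Plus libraries. Mature DC markers summed to 263653 there against 345895 and 356528, and pan-cDC markers to 155755 against 258044 and 226600. The cDC1, cDC2, plasmacytoid, B cell and NK cell sums were also lowest of the group there. Those of T lineage, thymic epithelium and neutrophil markers were not. Cish, Socs3, Socs1 and Socs5 were each lowest of their group in TH2Plus replicate 3, whereas Socs2, Socs4, Socs6 and Socs7 were highest of their group there. The part of the cells carrying these markers in the members' levels was not tested.

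**Figure D3:**
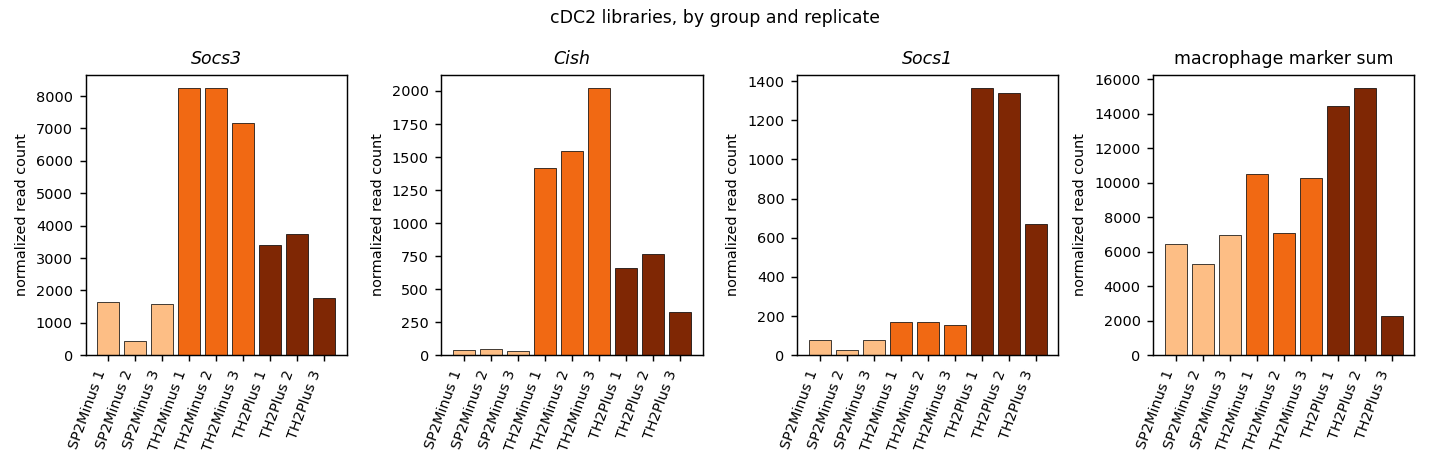
Normalized read counts of Socs3, Cish and Socs1 and the summed level of 7 macrophage marker genes in each cDC2 library, with bars for replicates 1 to 3 of SP2Minus, TH2Minus and TH2Plus. In TH2Plus replicate 3 all 4 quantities are below those of the other TH2Plus libraries, and Socs3 and Cish are highest in the TH2Minus libraries.

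Socs1 encodes the main inhibitor of interferon signalling, which binds and blocks JAK1, JAK2 and TYK2. It lies on chromosome 16 from 10782240 to 10785536, on the minus strand, with 2 merged exons. Its promoter window held no TTCNNNGAA. Because interferons act on cells through related elements, the core of an interferon response element, GAAA followed by any 2 bases and GAAA, was also searched for on both strands. It was present in 3.44% of the 32851 windows and more than once in 0.225% of them. The Socs1 window held it at 2 overlapping places, from 83 to 74 and from 77 to 68 bases before the annotated start, which form the run of capitals in the stretch at chr16:10785574-10785649 (minus strand). The windows of Cish, Socs3 and Socs4 held no such core and the Socs4 window neither motif. The motifs were chosen after the levels had been seen, and a match describes the letters of a window only.

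Socs1: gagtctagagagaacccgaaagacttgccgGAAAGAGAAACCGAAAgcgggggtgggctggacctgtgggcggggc

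Socs1 rose at each step from spleen to immature and to mature thymus. Its normalized read counts were 78.7, 25.6 and 75.0 in SP2Minus, 60.7, 72.0, 176 and 68.4 in SP1Minus, and 169.7, 169 and 153 in TH2Minus. They were 256, 236, 251 and 181 in TH1Minus, 560.4, 754 and 919 in TH1Plus, and 1366, 1341 and 670.3 in TH2Plus. The mature groups overlapped each other and lay above all immature samples. SP1Minus replicate 3, at 176, was the sole splenic sample above any immature thymic sample, since it lay above all 3 TH2Minus samples and below all TH1Minus samples.

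On maturation Socs1 rose 3.22-fold in cDC1 (1.67, SE 0.39, adjusted p = 0.00093) and 6.88-fold in cDC2 (2.70, SE 0.41, adjusted p = 1.8e-05), or by 3.04 without TH2Plus replicate 3. The difference between these effects was 1.04 (SE 0.57, adjusted p = 0.25), not called unless the fit was limited to the groups compared (1.04, adjusted p = 0.088). Thymic immature cells lay above splenic ones by 1.41 in cDC1 (SE 0.36, adjusted p = 0.0099) and by 1.60 in cDC2 (SE 0.41, adjusted p = 0.0084). Both tissue effects differed between the libraries of the lanes, which were few. In lane 5 each rested on 1 thymic library, and in lane 8 the cDC2 effect rested on 1 splenic library. Among the libraries of lane 8 they were 1.00 (adjusted p = 0.22) and 1.09 (adjusted p = 0.26), against differences of 1.94 and 1.89 in lane 5. Without SP1Minus replicate 3 the cDC1 effect was 1.76 and without SP2Minus replicate 2 the cDC2 effect was 1.08 (adjusted p = 0.056). No subset comparison was called, with values of -0.67 in the spleen, -0.48 in the immature thymus and 0.55 in the mature thymus (adjusted p between 0.25 and 0.47).

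Socs5 and Socs4 form a pair of closely related members with a long N-terminal region, known as inhibitors of the EGF receptor, and SOCS5 also of IL-4 signalling. Socs5 lies on chromosome 17 from 87107679 to 87137839, on the plus strand. It was called lower on maturation in both subsets, which no other member was. In thymic cDC1 and cDC2 its normalized read counts were 604, 558, 426 and 637 in TH1Minus and 216, 114 and 245 in TH1Plus, and 431, 544 and 383 in TH2Minus and 207, 214 and 156 in TH2Plus. The mature groups overlapped each other and lay below all immature samples, of which the splenic ones ran from 295 to 596. The fall was 2.90-fold in cDC1 (-1.59, SE 0.24, adjusted p = 1.1e-05) and 2.35-fold in cDC2 (-1.23, SE 0.26, adjusted p = 0.00059), or by 1.09 on the log2 scale without TH2Plus replicate 3 (adjusted p = 0.0047). The difference between both was 0.36 (95% interval -0.39 to 1.11, adjusted p = 0.57). Neither tissue nor subset gave a called difference, with log2 values between -0.46 and 0.31.

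Socs4 lies on chromosome 14 from 47276931 to 47296102, on the plus strand, and no comparison called it. Its group means were 1038 ± 293 (SD, n = 4) in SP1Minus, 1024 ± 259 (SD, n = 4) in TH1Minus, 1346 ± 198 (SD, n = 3) in TH1Plus, 1007 ± 321 (SD, n = 3) in SP2Minus, 1006 ± 159 (SD, n = 3) in TH2Minus and 1412 ± 230.4 (SD, n = 3) in TH2Plus. All neighbours in the order of the means overlapped. The highest group mean was 1.40-fold above the lowest, and the largest log2 difference over the 15 pairs of groups was 0.52. On maturation the intervals ran from -0.12 to 0.97 in cDC1 and from -0.09 to 1.07 in cDC2, so that a rise of up to about 2-fold was within the error. The tissue effects, -0.01 in cDC1 (95% interval -0.51 to 0.49) and 0.03 in cDC2 (95% interval -0.55 to 0.61), were bounded well below 2-fold.

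Socs7 encodes a protein that binds insulin receptor substrate 1 and adaptor proteins. It lies on chromosome 11 from 97362551 to 97398542, on the plus strand. Its changes were small and went in opposite directions. Its normalized read counts were 1799, 1495, 1281 and 1595 in TH1Minus and 1051, 880.4 and 1015 in TH1Plus, against 1128, 1142 and 1086 in TH2Minus and 1264, 1423 and 1463 in TH2Plus. Maturation thus moved the samples without overlap downward in cDC1 (-0.64, SE 0.14, adjusted p = 0.00038) and upward in cDC2 (0.30, SE 0.15, adjusted p = 0.095). The difference between these effects was 0.95 (SE 0.20, adjusted p = 0.0032), just under the fold threshold. Leaving out TH1Minus replicate 3 or TH2Plus replicate 1 brought it past the threshold, at 1.03 and 1.01. Splenic samples ran from 1008 to 1391.

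Socs6 encodes an adaptor known from the receptor tyrosine kinases KIT and FLT3, the receptor for the cytokine on which cDC development depends. It lies on chromosome 18 from 88665224 to 88927481, on the minus strand. It was higher in thymic cDC2 than in the other groups. The normalized read counts of Socs6 were 1002, 1216 and 1048 in TH2Minus and 1044, 1034 and 1165 in TH2Plus. They were 730.0, 622 and 861 in TH1Plus, 531, 501, 418 and 597 in TH1Minus, 519.9, 571, 356 and 454 in SP1Minus, and 432, 479 and 378 in SP2Minus. The TH2 groups overlapped each other and lay above all other samples, TH1Plus stood between them and the remaining groups without overlap, and the last 3 groups overlapped.

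Thymic cDC2 lay 2.53-fold above splenic cDC2 for Socs6 (1.34, SE 0.19, adjusted p = 2.5e-05), whereas in cDC1 the tissue effect was 0.12 (95% interval -0.22 to 0.46). Within lanes 5 and 8 the tissue effect in cDC2 was 1.14 and 1.58. The difference between both tissue effects was called (1.22, SE 0.25, adjusted p = 0.0042), but not among the libraries of lane 8 alone (1.26, adjusted p = 0.16). TH2Minus exceeded TH1Minus 2.13-fold (1.09, SE 0.18, adjusted p = 7.0e-05), whereas the spleen showed -0.13 (95% interval -0.49 to 0.24). On maturation the log2 fold change was 0.53 in cDC1 (SE 0.18, adjusted p = 0.014), under the fold threshold, and -0.01 in cDC2 (95% interval -0.40 to 0.38). In the mature thymus cDC2 lay 1.46-fold above cDC1, at 0.56 on the log2 scale (adjusted p = 0.035).

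**Figure D4:**
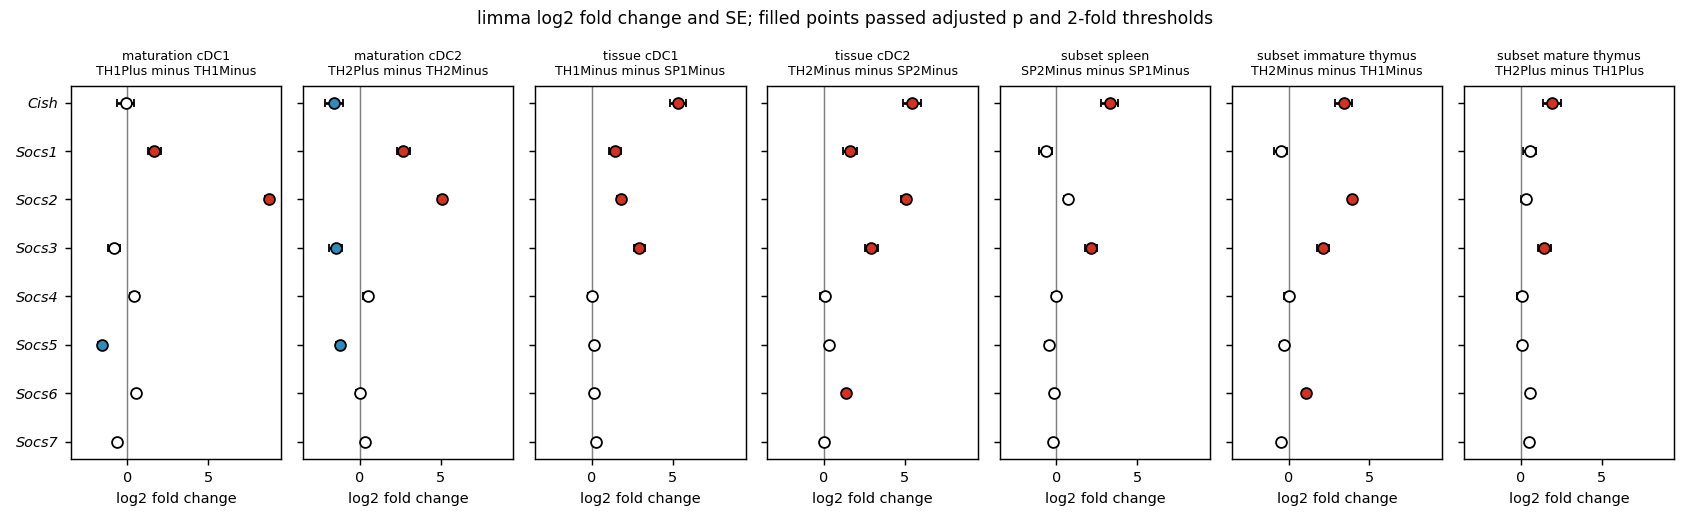
log2 fold changes of the 8 members in the 7 comparisons between groups, on the horizontal axis, with points for the limma estimate and bars for its SE. Filled points passed the adjusted p and 2-fold thresholds, red for higher and blue for lower in the group named first. Socs2 reaches 8.75 and 5.09 on maturation, Cish and Socs3 are to the right of 0 in every tissue and subset comparison, and Socs4 stays near 0.

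On maturation of thymic cDC1, 2 of the 8 members were called higher (25%) and 1 lower (12.5%), against 21.3% and 24.5% of all genes tested. On maturation of thymic cDC2, 2 were higher (25%) and 3 lower (37.5%), against 18.6% and 17.0%. With counts this small, the share called on maturation was near that of all genes. The median log2 fold change of the members was 0.16 in cDC1 and 0.15 in cDC2, beside medians of -0.04 and 0.04 over all genes.

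Between tissues, 4 of 8 members were higher in thymic cDC1 (50%) and 5 of 8 in thymic cDC2 (62.5%), and 0 were lower. Over all genes, 4.26% were higher and 4.52% lower in thymic cDC1, and 8.30% were higher and 5.87% lower in thymic cDC2. In these comparisons T lineage and thymic epithelium markers were higher in thymic cells as well. In cDC2 so were plasmacytoid markers and 3 of 7 macrophage markers. B cell markers were lower in thymic cells (3 of 3 tested in cDC1 and 2 of 3 in cDC2), as were 2 of 2 tested NK cell markers in cDC2. The members' medians were 0.82 and 1.47, beside 0.0043 and 0.02 over all genes. In cDC2 against cDC1, 2 members were higher in the spleen (Socs3 and Cish), 4 in the immature thymus (Socs2, Socs3, Socs6 and Cish) and 2 in the mature thymus (Socs3 and Cish), and 0 were lower in any of these. The background was 9.93% higher and 6.70% lower in the spleen, 11.0% and 5.42% in the immature thymus, and 14.6% and 4.36% in the mature thymus. The members' medians were -0.08, 0.55 and 0.52, beside 0.02, 0.01 and 0.14. Of the differences between effects, 1 member was called for maturation (Socs2) against 13.6% of all genes, and 2 for tissue (Socs2 and Socs6) against 4.98%. Comparisons that use the same group share its samples, so that their calls are not independent of each other.

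The genes with the most similar profiles were sought among 10224 genes with a mean of at least 100, by the root mean square distance of log2 profiles over the 20 samples after each was centred on its own mean. For Socs2 they were Lad1 (distance 0.60, against a spread of 4.41 of Socs2 about its own mean), Scube3 (0.73) and Cacnb3 (0.74). Lad1, which encodes ladinin, had group means of 16.1 in SP1Minus, 36.5 in SP2Minus, 87.2 in TH1Minus, 817 in TH2Minus, 17938 in TH1Plus and 20559 in TH2Plus, in the same order as Socs2. Socs3 was followed most closely by Plxna1 (0.41), a semaphorin receptor chain with means of 139 in SP1Minus and 4045 in TH2Minus, then by Vipr1 (0.61) and Tcea3 (0.61). Those nearest to Cish were farther away, namely Bcar3 (1.00), Slfn1 (1.10) and Sdc4 (1.18). For Socs1 they were Arhgef40 (0.45), Selm (0.48) and Bcl2l1 (0.49), the last encoding the survival factor BCL-XL. The closest genes were Tnpo1, Naa30 and Ankrd13c for Socs4, Zdhhc13, Leprotl1 and Bpnt1 for Socs5, Cebpg, Fam96a and Edem1 for Socs6, and Foxk2, Meaf6 and Entpd7 for Socs7, at distances between 0.14 and 0.29.

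**Figure D5:**
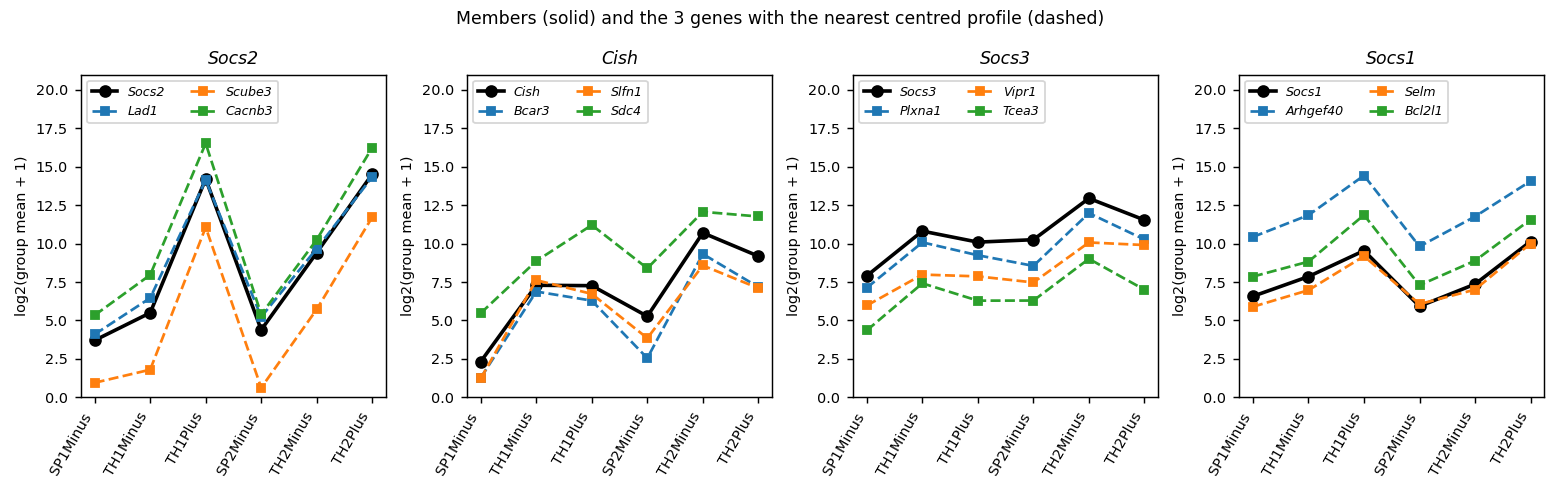
Group means as log2(mean + 1) of Socs2, Cish, Socs3 and Socs1 (solid black) and of the 3 genes with the nearest centred profile (dashed), over the 6 groups. Lad1 lies almost on the Socs2 line, from 16.1 in SP1Minus to 20559 in TH2Plus.

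The signalling parts on which the SOCS proteins act were followed by fixed lists. Of the 4 Janus kinases, the tyrosine kinases attached to cytokine receptors, 3 were higher on maturation in cDC1 and 2 in cDC2, and 0 were lower, against 21.3% and 18.6% of all genes higher. Jak2 rose from a mean of 13436 to 40000 in cDC1 (1.58, adjusted p = 5.0e-07), and Tyk2 from 3854 to 16049 in cDC2 (2.05, adjusted p = 5.5e-08). The median of the list was 1.16 in cDC1 and 1.05 in cDC2, beside -0.04 and 0.04 over all genes. Jak3, which serves receptors with the common gamma chain, was higher in splenic cDC2 than in splenic cDC1 (1.43, adjusted p = 3.0e-04) and lower in thymic than in splenic cDC2 (-1.11, adjusted p = 0.0072).

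Of the 7 STAT factors, 3 were higher on maturation in cDC1 and 2 in cDC2, against 21.3% and 18.6% of all genes, a share that 2 of 7 is near. Stat4, which transmits IL-12 signals, rose from a mean of 11.0 to 4129 in cDC1 (9.04, SE 0.64, adjusted p = 2.1e-10) and from 185 to 4720 in cDC2 (4.66, SE 0.69, adjusted p = 1.2e-05). Stat5a, the factor most closely tied to Cish and Socs2, rose on maturation in cDC1 (2.14, SE 0.20, adjusted p = 1.7e-08) but was not called in cDC2. It was higher in thymic than in splenic cDC2 (1.14, adjusted p = 7.0e-04) but was not called between tissues in cDC1. It was also higher in cDC2 than in cDC1 of the immature thymus (1.62, adjusted p = 3.8e-06) and of the spleen (1.01, adjusted p = 0.00073). Stat3, the factor tied to Socs3, rose on maturation in cDC1 (1.92, adjusted p = 3.6e-10) and in cDC2 (1.59, adjusted p = 3.5e-08). Between tissues, 2 of the 7 STAT factors were higher and 1 lower in thymic cDC1, and 1 was higher and 1 lower in thymic cDC2. The shares of all genes were 4.26% and 4.52% in cDC1, and 8.30% and 5.87% in cDC2. Stat2, which carries interferon signals, was higher in thymic than in splenic cDC1 (1.53, adjusted p = 3.4e-08), and Stat4 was lower in thymic cDC2 (-1.67, adjusted p = 0.094). In cDC2 against cDC1, 2 of the 7 were higher in the spleen and 2 in the immature thymus, and 0 were lower. In the mature thymus 0 of the 7 were called. Of all genes, 9.93% were higher and 6.70% lower in the spleen, 11.0% and 5.42% in the immature thymus, and 14.6% and 4.36% in the mature thymus.

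Of 27 chains of type I cytokine receptors, 22 passed the filter on low values, and 12 of these rose and 4 fell on maturation in cDC1, with 11 and 2 in cDC2. Over all genes, 21.3% rose and 24.5% fell in cDC1, and 18.6% and 17.0% in cDC2. Their medians were 1.44 and 1.13. Il21r, the IL-21 receptor, rose from 58.0 to 11503 in cDC1 (7.62, adjusted p = 1.7e-16), and Il2ra, the high-affinity IL-2 receptor chain, rose from 88.1 to 6383 in cDC2 (6.21, adjusted p = 5.2e-07). Il23r was at means of 0.42 in TH1Minus and 2.84 in TH2Minus and reached 899.6 in TH1Plus and 528 in TH2Plus. Il6ra, the IL-6 receptor chain that signals through gp130, fell from 3193 to 135 in cDC1 (-4.62, adjusted p = 8.1e-13) and from 6190 to 789 in cDC2 (-2.99, adjusted p = 3.6e-09), and Lifr fell in cDC2 (-3.73, adjusted p = 4.1e-05). In cDC2 against cDC1, 10 chains were higher in the spleen, 10 in the immature thymus and 8 in the mature thymus, and 0 were lower, where 9.93%, 11.0% and 14.6% of all genes were higher. Among them was Csf3r, the G-CSF receptor, with means of 19.0 in SP1Minus and 1312 in SP2Minus, and Il7r, with 24.5 in TH1Minus and 1183 in TH2Minus. Between tissues the type I chains were called in both directions, with 1 higher and 5 lower in thymic cDC1 and 3 higher and 5 lower in thymic cDC2, where 4.26% and 4.52% of all genes were called in cDC1 and 8.30% and 5.87% in cDC2. Il6st, which encodes gp130, was lower in thymic cDC1 (-1.50, adjusted p = 1.2e-06), and Il7r was higher in thymic cDC2 (4.29, adjusted p = 5.2e-07).

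Of the 9 chains of interferon and IL-10 family receptors, 1 was higher and 3 were lower on maturation in each subset. These few calls stand beside 21.3% higher and 24.5% lower of all genes in cDC1, and 18.6% and 17.0% in cDC2. Ifngr1, a chain of the interferon gamma receptor, fell from 5690 to 696 in cDC1 (-3.05, adjusted p = 5.7e-12) and from 4821 to 923 in cDC2 (-2.40, adjusted p = 1.4e-09), in the comparisons in which Socs1 rose. Ifnlr1, the interferon lambda receptor chain, was higher in thymic than in splenic cDC1 (2.78, adjusted p = 5.8e-08) and cDC2 (4.70, adjusted p = 2.5e-10), and Ifngr1 was lower in both (-1.69 and -1.24).

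Of 13 other inhibitors of JAK-STAT signalling, 4 were higher and 3 lower on maturation in cDC1, and 2 were higher and 1 lower in cDC2. The shares in cDC1 were near those of all genes, of which 21.3% were higher and 24.5% lower, against 18.6% and 17.0% in cDC2. Cblb, a ubiquitin ligase that restrains lymphocyte activation, rose by 3.29 in cDC1 (adjusted p = 4.2e-13) and by 3.87 in cDC2 (adjusted p = 4.8e-13), and Pias3, an inhibitor of STAT3, rose by 3.04 (adjusted p = 2.3e-12) and by 2.91 (adjusted p = 4.2e-11). Cbl fell in both subsets (-1.58 and -1.10). Usp18, an interferon-induced inhibitor of the type I interferon receptor, was higher in thymic than in splenic cells, with means of 443 in SP1Minus and 3417 in TH1Minus (2.96, adjusted p = 6.4e-10) and of 920.4 in SP2Minus and 5014 in TH2Minus (2.45, adjusted p = 6.4e-08). It was the sole gene of this list called higher in thymic cells, in either subset, while 0 were lower in cDC1 and 2 in cDC2. Those lower in thymic cDC2 were Ptprc (-1.51, adjusted p = 2.6e-05) and Cblb (-1.02, adjusted p = 1.3e-04). Of all genes, 4.26% were higher and 4.52% lower in thymic cDC1, and 8.30% and 5.87% in thymic cDC2, so that 1 of 13 is near the shares called higher. Of 6 ubiquitin ligase partners of the SOCS box, 1 was called in each maturation comparison, namely Cul2 in cDC1 (1.52, adjusted p = 1.6e-06) and Eloc, or elongin C, in cDC2 (1.00, adjusted p = 0.0036). Both were higher, and 1 of 6 is near the 21.3% and 18.6% of all genes called higher there. In the tissue and subset comparisons 0 were called, where 4.26% to 14.6% of all genes were called in each direction.

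Of 14 transcripts known to be raised by STAT signals, 8 were higher and 1 lower on maturation in cDC1, and 5 were higher and 2 lower in cDC2, with medians of 1.68 and 0.58 beside -0.04 and 0.04 over all genes, of which 21.3% were higher and 24.5% lower in cDC1 and 18.6% and 17.0% in cDC2. Gbp2, an interferon-induced GTPase, rose from 78.6 to 11022 in cDC1 (7.22, adjusted p = 2.3e-15) and from 889 to 19816 in cDC2 (4.49, adjusted p = 2.7e-11), and Ccl22 rose in both (6.35 and 3.63), while Cxcl9, a chemokine raised by interferon gamma, fell in both (-3.88 and -2.31). Between tissues, 2 genes of the list were higher and 2 lower in thymic cDC1, and 4 were higher and 1 lower in thymic cDC2. The shares of all genes were 4.26% and 4.52% in cDC1, and 8.30% and 5.87% in cDC2. Ccl17 and Ccl22, chemokines that IL-4 and GM-CSF raise in DCs, were higher in thymic than in splenic cells of both subsets. Gbp2 was lower in thymic cDC1 (-1.77) and Fcer2a in thymic cDC2 (-2.40). Ccl17 had means of 4.02 in SP1Minus and 218 in TH1Minus (5.74, adjusted p = 1.0e-06) and of 7.46 in SP2Minus and 5689 in TH2Minus (10.06, adjusted p = 3.1e-09). In cDC2 against cDC1, 5 genes were higher and 1 lower in the spleen, 8 and 1 in the immature thymus, and 2 and 2 in the mature thymus. All genes gave 9.93% and 6.70%, 11.0% and 5.42%, and 14.6% and 4.36%. Ccnd2 was higher in cDC2 than in cDC1 of the spleen (3.62), the immature thymus (4.11) and the mature thymus (1.70). Cxcl9 was lower in the spleen (-3.59) and the immature thymus (-1.85), and Batf (-1.59) and Irf1 (-1.34) in the mature thymus. The tissue effect was called larger in cDC2 than in cDC1 for 5 of the 14 genes of this list and smaller for 0. The maturation effect was called smaller in cDC2 for 7 and larger for 1. Of all genes, 4.98% were called in either direction for the tissue difference and 13.6% for the maturation difference.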

How the data were processed

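RNA of FACS-sorted cDCs was made into TruSeq Stranded mRNA libraries. Per the labels and the methods of the study, the authors used Cutadapt for trimming, STAR (version 2.6) for alignment to mm10, HTSeq-count for counting over Ensembl genes and DESeq2 (version 1.24.0) for normalization. The Ensembl release and the strand setting of the counting are not given in the sources used here. The deposited values are a signal, namely gene-level counts scaled by the size factor of their library, and whole reads were recovered for 100% of the values at a tolerance of 0.01 reads, between 14266867 and 40119669 per library. The floor of 3 reads covers counting error only. The intervals of log2 fold changes were built from the SE of the limma fit and measure the spread between samples.

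log2(value + 1) was fitted in limma (version 3.58.1, R 4.3.3) with 1 mean per group over 20 samples, with an intensity trend in eBayes, for the 14970 genes that reached 10 normalized counts in 3 or more samples. Genes were called at a Benjamini-Hochberg adjusted p below 0.1 over all genes tested and an absolute log2 fold change above 1. All adjusted p values are from limma unless edgeR (version 4.0.16) or DESeq2 (version 1.42.0), run on the recovered reads, is named. Of 37734 gene identifiers, 37693 were found in GENCODE M21, which gave positions and merged exon lengths. Promoter sequences were from RefSeq (GRCm38.p6).

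The family members, the lists and the tests were chosen with earlier results of these data known. The 8 members were named in every comparison. Of each list, up to 2 called genes with the largest rise and up to 2 with the largest fall, with a group mean of at least 100, could be named, with Ccr7, Esam, Xcr1 and Sirpa as checks. The 3 genes nearest in profile were named for each member. C1qa, Ptcra, Rag1 and the Stat3 value in cDC1 were named after their values were seen. Alternatives covered the test, scaling, pseudocount, filter, thresholds, samples in the fit, repeated libraries, lane, library number as a block, and the omission of each sample. The test scripts were tested on simulated data. A result on a listed gene is not reported here.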

Additional observations from a re-analysis of the deposited data

Results flagged for a closer look

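In the groups of 4 samples, 3 of 16 combinations of member and group held a sample whose gap to the nearest other was past the critical value for the group's range, and chance alone gives about 1 in 20. All were high values in splenic cDC1 (SP1Minus). Replicate 3 had 176 normalized read counts of Socs1 and 344 of Socs3, each the highest of its group, and this library stood apart from the other SP1Minus libraries over all genes. The average of the repeated libraries, replicate 4, had 18.0 of Socs2, against 10.3 or less in the other SP1Minus samples.

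The effects of 2 cell subsets differed by the limma test of the difference itself for 3 members. For Socs2 the maturation effect was smaller in cDC2 by 3.65 on the log2 scale (-3.65, adjusted p = 7.9e-07) and the tissue effect larger by 3.25 (adjusted p = 3.8e-06). For Socs6 the tissue effect was larger in cDC2 by 1.22 (adjusted p = 0.0042). For Socs7 the maturation effects differed by 0.95 (adjusted p = 0.0032), with a fall in cDC1 and higher values in cDC2.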

How the results depend on the processing

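Of the 72 results on single members, 28 were called, and 23 of these kept their direction and stayed called under each alternative that gave them a value, changes of the fold threshold aside, while 0 reversed. Of the 28, only 15 had a value when 10 was required in every sample, and the block was run for 2 subset comparisons only. The other 5 were the fall of Cish in maturing cDC2, Cish in the mature subsets, both tissue effects of Socs1 and the tissue difference of Socs6, with the values given above. A reversal occurred for 16 uncalled results, of which the largest was 0.21 in size. Cish maturation in cDC1 was 0.0093 with DESeq2 and 0.014 with edgeR using DESeq2's factors (RLE). Socs6 maturation in cDC2 was 0.014 with edgeR (TMM), 0.017 with TMM-rescaled values and 0.053 with lane as a covariate. For Socs4, the tissue effect in cDC1 was 0.14 with 1 sample per library number, 0.075 with lane as a covariate and 0.16 in lane 8, and that in cDC2 was -0.0082 with edgeR (TMM), -0.021 with DESeq2 and -0.022 with RLE. The Socs4 subset effect in the immature thymus was -0.044 with edgeR (TMM), -0.028 with DESeq2, -0.028 with RLE, -0.013 with TMM-rescaled values and -0.022 with lane as a covariate. Socs7 in the spleen was 0.070 in lane 8, and Socs5 in the mature thymus was -0.023 with DESeq2 and -0.019 with RLE. The tissue difference was -0.87 for Cish with a pseudocount of 0.1, and with 1 sample per library number 0.00099 for Socs3 and -0.10 for Socs4. Same-numbered libraries correlated at -0.040, 0.333 and 0.455 in the spleen and -0.106, 0.210 and 0.153 in the immature thymus. Libraries with different numbers correlated at -0.491 to 0.336 in the spleen and at -0.385 to 0.267 in the immature thymus. These few values overlap and do not settle whether the numbers pair samples, and the main fit did not pair them. With the library number as a block, Socs4 was 0.032 in the spleen and -0.073 in the immature thymus. These values equal those with 1 sample per number and without the block on the same 6 samples, an alternative chosen after seeing the data. The block leaves the difference unchanged by construction and can change only its error. The adjusted p of Socs4 was 0.93 with and 0.98 without the block in the spleen, and 0.58 and 0.76 in the immature thymus. Leaving out each sample in turn gave ranges of -0.45 to 0.13 for Cish and -0.065 to 0.074 for Socs6 on maturation in cDC1 and cDC2, respectively. The ranges were -0.25 to 0.20 (Socs4) and -0.014 to 0.21 (Socs6) for tissue in cDC1, and -0.13 to 0.28 (Socs4) and -0.095 to 0.11 (Socs7) in cDC2. For the subsets they were -0.28 to 0.13 in the spleen, -0.20 to 0.13 in the immature thymus and -0.061 to 0.19 in the mature thymus (Socs4), and -0.27 to 0.28 for Socs5 in the mature thymus. For the differences they were -0.066 to 0.27 (Socs4, maturation), -0.33 to 0.46 (Socs1), -0.65 to 0.30 (Socs3), -0.17 to 0.29 (Socs4) and -0.27 to 0.75 (Cish) for tissue, and 1 to 2 members called for maturation. Requiring a value of 10 in every sample, which dropped Socs2 and Cish, left 3 of 5 calls for maturation in cDC2, 2 of 4 for tissue in cDC1, 3 of 5 in cDC2, 1 of 2 in the spleen, 2 of 4 in the immature thymus, 1 of 2 in the mature thymus, 0 of 1 for the maturation difference and 1 of 2 for the tissue difference. A log2 threshold of 2 left 1 and 2 on maturation, 2 and 3 for tissue, 0 in the mature thymus and 1 for the tissue difference, which was also 1 in lane 8. With no fold threshold 6 were called on maturation in cDC1, 4 in the mature thymus and 2 for the maturation difference. That difference also gave 2 with edgeR (TMM and RLE), DESeq2, a pseudocount of 8 and 1 sample per number, and 3 in a fit of only the groups compared, and the mature thymus gave 1 with a pseudocount of 0.1. Over all genes, calls were 0.398 to 0.598 times as many with a value of 10 in every sample and 0.471 to 0.578 times with the log2 threshold of 2 in all 9 comparisons, 1.58 to 1.87 times with no fold threshold in 5, 0.302 to 0.667 times in lane 8 in 4, and 0.601 times for the mature subsets in a fit of only those groups. Where no construction of the alternative shows it, the cause was not tested. Depth limited Cish in SP1Minus, at 0 to 15 reads per sample.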
